A study of Mus musculus with 6 samples.

Results

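The salt-inducible kinases and the CREB coactivators were described in hippocampal nuclei of aged mice as 9 genes: the kinases Sik1, Sik2 and Sik3, the coactivators Crtc1, Crtc2 and Crtc3, the transcription factors Creb1 and Crem, and the phosphodiesterase Pde4b. They are 9 of the 32285 genes listed in the count matrices and were selected by symbol. The set was chosen by earlier results of the same comparison, so its values for sevoflurane against oxygen are a description and not independent evidence. Single-nucleus RNA sequencing had been done on hippocampi of mice aged 18 to 20 months. In 3 libraries the mice had breathed 2% sevoflurane, an inhaled anaesthetic, in 60% oxygen for 6 h at 1 L/min, and in 3 libraries they had breathed 60% oxygen alone for as long and at the same flow. The labels name no strain, give the mice no genetic change and leave the number of animals in a library unstated, and the tests therefore measure only how much the libraries vary, which may be technical.

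Salt-inducible kinases are relatives of the AMP-activated kinase and are switched on by the kinase Lkb1. They phosphorylate the CRTC proteins, which are then held in the cytoplasm by 14-3-3 proteins. When cAMP rises, protein kinase A inhibits the salt-inducible kinases and phosphorylates CREB. Calcineurin removes the phosphates from the CRTC proteins. CRTC and CREB together switch on genes that carry a cAMP response element in their promoters. Sik1 and Crem are themselves known targets of CREB, and the phosphodiesterases of the PDE4 family end the signal by degrading cAMP. In the hippocampus the pathway is known for its part in activity-dependent transcription and memory.

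The 6 libraries held 56334621 to 72636984 UMIs (unique molecular identifiers, counted transcripts) and 7734 to 9726 nuclei each after filtering, with medians of 4664 to 6090 UMIs per nucleus. Any 2 libraries shared 15 to 33 barcodes, and no shared barcode had the same total. The labels call replicates 1 and 2 of each group male and replicate 3 female, but sevoflurane replicate 1 had 1333 CPM (the UMIs of a gene scaled to the library or class total after the TMM normalisation of edgeR, which corrects totals for differences in composition) of Xist and 0.341 CPM of summed Y-linked genes, while the other 5 libraries had 0.515 to 1.17 CPM of Xist and 351 to 383 CPM of Y-linked genes. The label thus went against expression in 3 of 6 libraries. The member results that passed the test are also given without sevoflurane replicate 1, by value or within a range. The values of genes from the pathway lists are given with all libraries only. Choroid plexus-like nuclei numbered 60, 16 and 99 in the oxygen libraries and 0 in each sevoflurane library. Nuclei were grouped into classes by marker genes, 12 of which had at least 20 nuclei in every library and were tested, as were all nuclei together. In whole classes, fewer nuclei of a subtype and less RNA per nucleus cannot be told apart.

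The regions just before the start sites were read for the cAMP response element, because this is the sequence through which CREB and its coactivators act. RefSeq entries (GRCm38.p6) were matched for 6 of the 9 members, namely Sik2, Sik3, Crtc1, Crtc3, Creb1 and Pde4b. They gave 9 start sites in all, 4 of them of Pde4b. Sik1, Crtc2 and Crem had no entry, so the regions before Sik1 and Crem, the known targets of CREB, were not read. The full element TGACGTCA, searched on both strands, was in 0 of these 9 windows of 250 bases, against 1.55% of 32851 windows of the same length. The shorter form TGACG, which is also contained in the full element, was found before 1 start site of Sik3 and 1 of Pde4b, and 17.8% of all windows hold it. The Sik3 window held it 3 times, at 133, 116 and 57 bases before the start, and 0.688% of all windows hold at least 3. The Pde4b window held it once, on the opposite strand, 34 bases before the start. Both windows are shown because they hold the matches, which are in capitals. The Sik3 window is chr9:46012570-46012819 and lies in front of the gene. The Pde4b window is chr4:102421305-102421554 and lies inside the gene, which runs from 102087543 to 102607259, before an internal start site. Both are on the plus strand. The outermost start of the Pde4b gene had no entry and was not searched.
Sik3: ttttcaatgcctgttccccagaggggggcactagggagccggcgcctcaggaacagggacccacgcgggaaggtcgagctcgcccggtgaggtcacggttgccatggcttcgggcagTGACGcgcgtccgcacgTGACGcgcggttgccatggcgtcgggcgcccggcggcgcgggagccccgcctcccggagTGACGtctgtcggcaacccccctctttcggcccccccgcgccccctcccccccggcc
Pde4b: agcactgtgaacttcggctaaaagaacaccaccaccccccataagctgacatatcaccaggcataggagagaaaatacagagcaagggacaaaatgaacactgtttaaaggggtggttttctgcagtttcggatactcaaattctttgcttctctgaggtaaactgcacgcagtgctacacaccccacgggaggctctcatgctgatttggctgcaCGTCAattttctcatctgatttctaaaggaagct
A match describes these letters and is not evidence that a factor binds there.

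In the oxygen libraries the members differed in where they were highest among the 12 tested classes. Sik1, whose gene spans 11.56 kb (mm10 chromosome 17, 31844250 to 31855804, minus strand), was highest in endothelial-like nuclei at 68.6 ± 12.6 CPM (SD, n = 3), followed by ependymal-like nuclei at 31.2 ± 13.2 CPM. Those 2 classes did not overlap with each other or with the third tested class, inhibitory neuron-like nuclei at 4.46 ± 1.33 CPM. The 9 later pairs of neighbours in the order overlapped. Classes too small to test, scaled to their own totals, also held Sik1. Pericyte-like nuclei had 19.6, 63.65 and 23.4 CPM, and Cajal-Retzius-like nuclei 32.4, 13.9 and 53.6 CPM. Leptomeningeal fibroblast-like nuclei had 26.6, 13.3 and 19.8 CPM, choroid plexus-like 3.32, 25.1 and 23.9 CPM and neuroblast-like 0, 26.9 and 0 CPM. Each rests on 2 to 15 UMIs. An unnamed cluster with 1, 14 and 14 nuclei had 266, 59.3 and 62.55 CPM. Sik2 was highest in microglia-like nuclei (169 ± 1.41 CPM) and lowest in CA3 pyramidal-like nuclei (71.6 ± 6.17 CPM). Sik3 was highest in oligodendrocyte-like (975 ± 18.8 CPM) and astrocyte-like nuclei (894 ± 83.7 CPM) and lowest in microglia-like nuclei (188 ± 31.4 CPM). Among the coactivators, Crtc1 was highest in dentate granule-like neurons (121 ± 9.61 CPM), with no overlap with the next class, CA3 pyramidal-like neurons (96.5 ± 4.20 CPM). Crtc3 was highest in ependymal-like nuclei (263 ± 60.4 CPM), which overlapped with astrocyte-like nuclei (228 ± 7.97 CPM). Crtc2 varied least, from 12.4 ± 2.06 CPM in CA3 pyramidal-like to 22.4 ± 7.60 CPM in ependymal-like nuclei.

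Creb1 was highest in microglia-like nuclei (188 ± 37.6 CPM) and lowest in CA2 pyramidal-like neurons (57.9 ± 2.69 CPM). Crem was highest in ependymal-like nuclei (111 ± 9.001 CPM), without overlap with astrocyte-like nuclei (79.5 ± 5.77 CPM), and lowest in CA2 pyramidal-like neurons (17.2 ± 2.55 CPM). Pde4b had the widest range of the 9 members. It stood at 7249 ± 697 CPM in oligodendrocyte-like nuclei, 1758 ± 26.0 CPM in oligodendrocyte precursor-like nuclei and 37.6 ± 4.52 CPM in dentate granule-like neurons, and its highest class was 193 times its lowest. Oligodendrocyte-like nuclei supplied 44.7% of all Pde4b UMIs of the oxygen libraries.

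**Figure D1:**
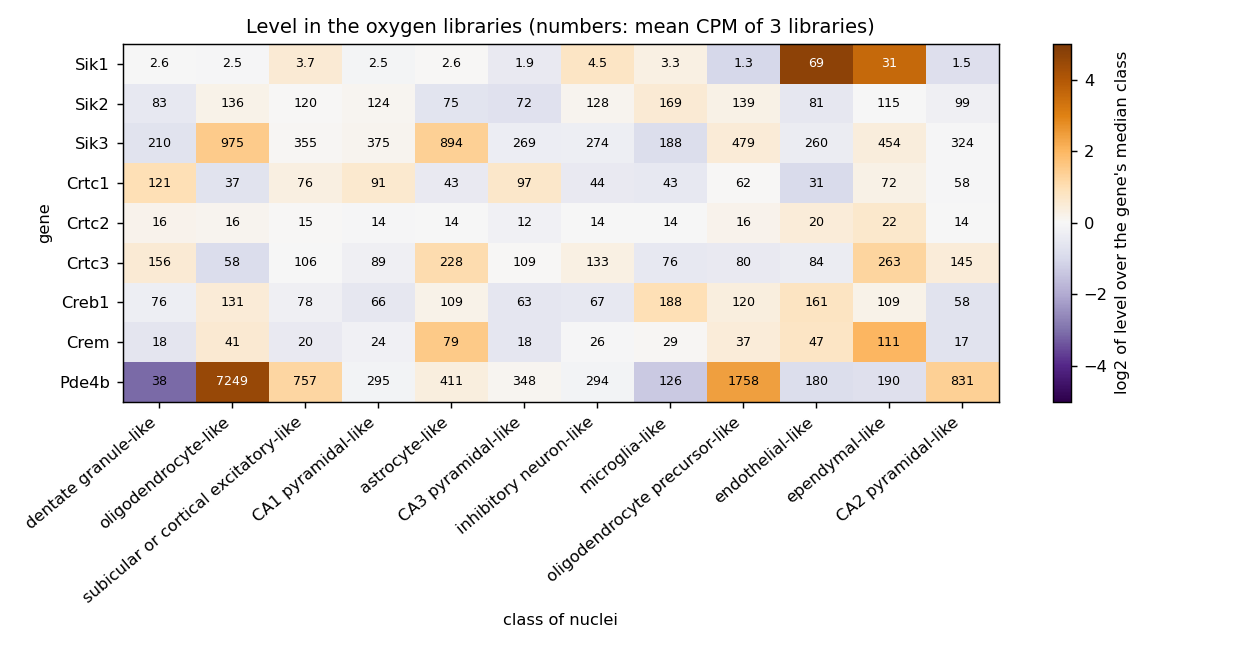
Mean level of each member in the 3 oxygen libraries, with genes in rows and the 12 tested classes in columns; numbers are CPM and colours give the log2 of the level over the gene's median class. Pde4b stood at 7249 CPM in oligodendrocyte-like nuclei and 37.6 CPM in dentate granule-like neurons, and Sik1 was highest in endothelial-like nuclei.

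Sevoflurane was then compared with oxygen by the edgeR quasi-likelihood test, with p-values adjusted over all genes tested in each set of nuclei and a threshold of 0.05. Of 117 pairs of a member and a set, 112 were tested, and 5 passed: 3 were higher and 2 lower after sevoflurane. Over all genes and the 13 sets pooled, 0.552% of tests were higher and 1.2% lower. In either direction the share of all genes that passed was 1.98% in all nuclei, 4.58% in dentate granule-like, 0.858% in oligodendrocyte-like, 1.27% in subicular or cortical excitatory-like, 2.14% in CA1 pyramidal-like, 2.22% in astrocyte-like, 1.68% in CA3 pyramidal-like and 0.902% in inhibitory neuron-like nuclei. It was 0.429% in microglia-like, 1.23% in oligodendrocyte precursor-like, 3.03% in endothelial-like, 0.376% in ependymal-like and 0.243% in CA2 pyramidal-like nuclei. The members were chosen with this comparison known, so nothing is read from their count against these shares. All 5 pairs belonged to Sik1 and Pde4b. Groups are said not to overlap where every library of one lies above every library of the other. Over all genes tested this held for 25.4% in all nuclei and, by class, for 13.7% (microglia-like) to 24.7% (dentate granule-like); pooled over the 12 classes, 8.99% of tests were higher without overlap and 10.3% lower.

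**Figure D2:**
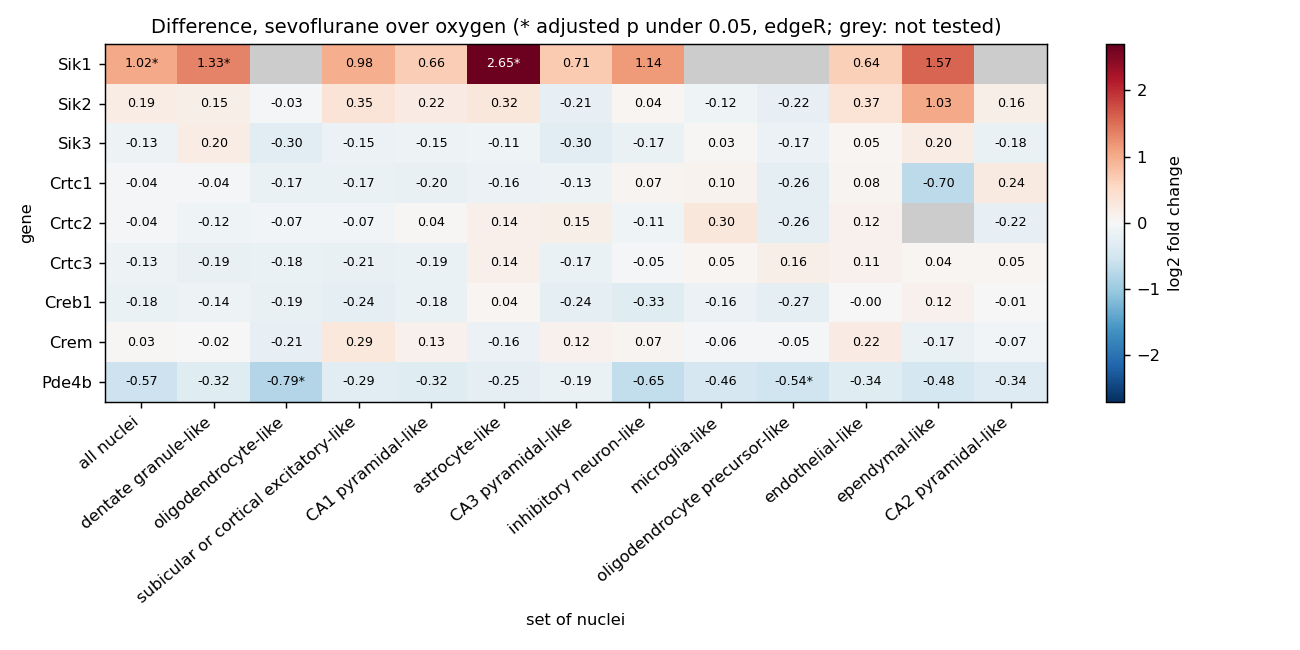
Log2 fold change of sevoflurane over oxygen for the 9 members (rows) in all nuclei and the 12 classes (columns); a star marks an adjusted p under 0.05 by edgeR and grey marks a pair that was not tested. The fitted difference of Sik1 was above 0 in all 9 sets where it was tested and that of Pde4b below 0 in all 13. The sign of Pde4b in endothelial-like nuclei changed with a stricter filter on nuclei and without oxygen replicate 2. In CA3 pyramidal-like neurons its sign changed when a trend over gene length, described further on, was taken out.

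Sik1, the kinase of the family that is itself switched on by CREB, was the member with the largest difference. Over all nuclei it stood at 4.47, 3.31 and 4.53 CPM in oxygen replicates 1 to 3 and at 9.23, 9.19 and 6.53 CPM in sevoflurane replicates 1 to 3. Every sevoflurane library lay above every oxygen library, and Sik1 rose by a log2 fold change of 1.02 (SE 0.18, adjusted p = 0.0392, edgeR). Without choroid plexus-like nuclei the log2 fold change was 1.04 (adjusted p = 0.034, edgeR). An unnamed cluster with inhibitory neuron markers held 11, 12 and 17 nuclei of the oxygen and 167, 217 and 181 of the sevoflurane libraries. It supplied 5 of 684 Sik1 UMIs in oxygen and 132 of 1649 in sevoflurane. Its part in the difference over all nuclei was not tested. The call over all nuclei did not survive leaving out any 1 of 5 libraries: the adjusted p was 0.0812 to 0.113 without oxygen replicate 1, 2 or 3 or sevoflurane replicate 1 or 2, and 0.0404 without sevoflurane replicate 3.

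In astrocyte-like nuclei Sik1 had 3.29, 1.97 and 2.64 CPM in the oxygen libraries, from 7, 5 and 5 UMIs. In the sevoflurane libraries it had 14.4, 20.6 and 14.3 CPM, from 18, 49 and 38 UMIs. The groups lay far apart, and Sik1 rose by 2.65 on the log2 scale, or 6.29-fold (SE 0.34, adjusted p = 0.000446, edgeR). This was the largest difference of any member in any set. Without sevoflurane replicate 1 it was 2.72 (adjusted p = 0.000415, edgeR), and leaving out each library in turn gave 2.44 to 2.84. DESeq2 gave Sik1 no adjusted p in this class. The 10 astrocyte markers summed to 12850 to 13000 CPM in oxygen and 9937 to 12230 CPM in sevoflurane, and the 8 choroid plexus markers to 168 to 1010 CPM and 16.6 to 25.7 CPM. The 10 endothelial markers, which mark the tested class where Sik1 is highest, summed to 33.8 to 84.1 CPM in oxygen and 32.9 to 63.2 CPM in sevoflurane. The part of these marker levels in the Sik1 difference was not tested.

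In dentate granule-like neurons Sik1 had 2.69, 2.08 and 3.09 CPM in oxygen and 7.77, 7.29 and 4.49 CPM in sevoflurane. The groups did not overlap, and Sik1 rose by 1.33 on the log2 scale (SE 0.26, adjusted p = 0.0181, edgeR). Without sevoflurane replicate 1 the value was 1.18 (adjusted p = 0.0391, edgeR), but the call ended without oxygen replicate 1 (0.0644), oxygen replicate 2 (0.0918) or sevoflurane replicate 2 (0.0557), as adjusted p-values of edgeR. This class joined 2 clusters in which the groups were unevenly placed. The larger cluster held 703, 1741 and 1043 nuclei of the oxygen and 634, 309 and 954 of the sevoflurane libraries, and the smaller held 328, 192 and 268 against 1451, 1535 and 666. Scaled to the total of each cluster, Sik1 had 2.59, 2.00 and 2.91 CPM against 9.55, 9.75 and 4.75 CPM in the larger, and 2.47, 1.21 and 3.46 CPM against 7.17, 6.82 and 4.39 CPM in the smaller, where the oxygen libraries held 12 Sik1 UMIs in all. The groups did not overlap in either cluster. The 7 dentate granule markers summed to 1391 to 1669 CPM in oxygen and 1082 to 1268 CPM in sevoflurane, and their part in the result was not tested.

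Sik1 passed the filter on low counts in 8 of 12 classes, and its fitted difference was above 0 in all 8, from 0.64 to 2.65. The groups did not overlap in 6 of them, all higher, against 8.99% of the tests of all genes; nothing is read from this, since Sik1 was chosen on this comparison. Of the 8 classes, 6 had an unadjusted p under 0.05 and 2 passed by edgeR, and 1 passed by DESeq2. Ependymal-like nuclei had 42.2, 16.6 and 35.0 CPM in oxygen and 139, 69.7 and 65.3 CPM in sevoflurane, a log2 difference of 1.57 that did not pass (SE 0.38, adjusted p = 0.0944, edgeR). Endothelial-like nuclei had 78.7, 72.7 and 54.4 CPM against 145, 103 and 89.9 CPM, a difference of 0.64 (SE 0.23, adjusted p = 0.164, edgeR). Inhibitory neuron-like nuclei differed by 1.14 (adjusted p = 0.12, edgeR) and subicular or cortical excitatory-like nuclei by 0.98 (adjusted p = 0.0928, edgeR), which passed without sevoflurane replicate 3 (1.21, adjusted p = 0.0373). CA1 and CA3 pyramidal-like neurons overlapped between the groups. In oligodendrocyte-like, oligodendrocyte precursor-like, microglia-like and CA2 pyramidal-like nuclei Sik1 had 5 to 46 UMIs over all 6 libraries and was not tested.

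**Figure D3:**
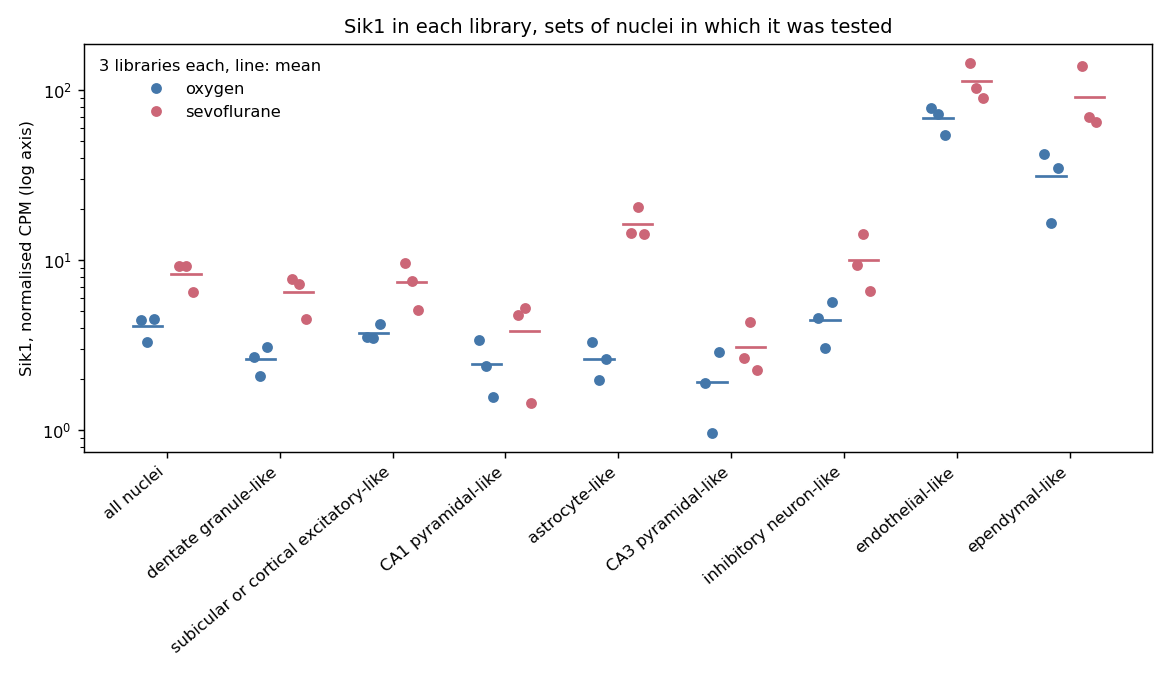
Sik1 in normalised CPM (log axis) in each library, for all nuclei and the 8 classes in which it was tested; points are libraries and lines are means of 3. In astrocyte-like nuclei the sevoflurane libraries sit between 14.3 and 20.6 CPM and the oxygen libraries between 1.97 and 3.29 CPM.

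The share of nuclei with at least 1 Sik1 UMI was compared after thinning every nucleus to 2000 UMIs. In astrocyte-like nuclei it was 0.401% ± 0.0709 in oxygen and 3.42% ± 0.975 in sevoflurane (SD, n = 3; exact permutation test, two-sided p = 0.1, the smallest that 20 splits can give). Unthinned, the shares were 0.789% and 4.72%. Oligodendrocyte-like nuclei, where Sik1 is low, gave 0.481% ± 0.0594 and 0.585% ± 0.102 after thinning, with median depths of 2315 and 2257 UMIs against 2968.5 and 3001 UMIs in astrocyte-like nuclei. Oligodendrocyte precursor-like nuclei, the class lowest in Sik1, gave 0.188% ± 0.164 and 0.298% ± 0.515. Thinned to 1000 UMIs, the shares were 0.277% in astrocyte-like and 0.258% in oligodendrocyte-like nuclei in oxygen, and 1.64% and 0.313% in sevoflurane. The oxygen share of astrocyte-like nuclei thus lay near the level of classes low in Sik1, above or below it depending on the class and depth, and the sevoflurane share was above both classes at either depth. In dentate granule-like neurons the thinned share was 0.457% ± 0.0572 in oxygen and 1.31% ± 0.31 in sevoflurane (exact permutation p = 0.1). In ependymal-like nuclei it was 5.57% ± 2.04 and 15.5% ± 5.89 (exact permutation p = 0.1). The sevoflurane libraries lay above the oxygen libraries without overlap in 5 of 12 classes, the other 2 being subicular or cortical excitatory-like and inhibitory neuron-like nuclei. Shares of nuclei were not computed for other genes, so this count has no background and nothing is read from it. Thinning left out 269 oxygen and 244 sevoflurane nuclei of the astrocyte-like class.

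Sik2 and Sik3, the other 2 kinases of the family, passed the edgeR test in 0 of 12 classes each; at an unadjusted p under 0.05 the counts were 4 and 2, and by DESeq2 0 and 0. Sik2 spans 116.27 kb and overlaps Ppp2r1b on the opposite strand. Its differences ran from -0.22 to 1.03 with a median of 0.16. In subicular or cortical excitatory-like neurons Sik2 had 129, 113 and 118 CPM in oxygen and 162, 161 and 137 CPM in sevoflurane. The groups did not overlap, and the log2 difference was 0.35 (SE 0.09, adjusted p = 0.0913, edgeR). It passed at Leiden resolution 0.5 (0.45, adjusted p = 0.0493, edgeR) and without sevoflurane replicate 3 (0.43, adjusted p = 0.0435, edgeR). In ependymal-like nuclei Sik2 had 108, 241 and 355 CPM in sevoflurane against 140.5, 102 and 102 CPM in oxygen, so the groups overlapped and sevoflurane replicate 1 lay with the oxygen libraries. The difference was 1.03 (adjusted p = 0.409, edgeR). Without sevoflurane replicate 1, the only library with high Xist and low Y-linked expression, it was 1.36 and passed (adjusted p = 0.0017, edgeR). Sik3 spans 211.38 kb, and its differences ran from -0.30 to 0.20 with a median of -0.15. In oligodendrocyte-like nuclei, its highest class, Sik3 had 987, 953 and 985 CPM in oxygen and 797, 758 and 819 CPM in sevoflurane, without overlap and with a difference of -0.30 that did not pass (SE 0.11, adjusted p = 0.273, edgeR).

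The 3 coactivators passed the edgeR test in 0 of 38 pairs with a set, with 4 at an unadjusted p under 0.05 and 0 by DESeq2, and in most sets the libraries of the 2 groups overlapped. Crtc1, the form best known from neurons, had 125, 127.5 and 110 CPM in oxygen and 124, 111.5 and 116 CPM in sevoflurane in dentate granule-like neurons, its highest class, and the groups overlapped. In ependymal-like nuclei it had 63.2, 66.3 and 85.8 CPM in oxygen and 28.4, 49.0 and 54.0 CPM in sevoflurane, a difference of -0.70 without overlap that did not pass (SE 0.31, adjusted p = 0.422, edgeR). Crtc2, best known from the liver, was low in all classes and overlapped between the groups in every class; it was not tested in ependymal-like nuclei. Crtc3 had differences from -0.21 to 0.16, with 6 classes above 0 and 6 below. In astrocyte-like nuclei Crtc3 had 233, 232 and 219 CPM in oxygen and 253, 246 and 254 CPM in sevoflurane, which did not overlap, and the difference was 0.14 (SE 0.12, adjusted p = 0.633, edgeR).

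Creb1, the factor that the coactivators bind, had differences below 0 in 10 of 12 classes, from -0.33 to 0.12, and passed the edgeR test in 0 of them, with 4 at an unadjusted p under 0.05 and 0 by DESeq2; the signs in astrocyte-like, endothelial-like, ependymal-like and CA2 pyramidal-like nuclei changed under at least 1 alternative. In inhibitory neuron-like nuclei Creb1 had 67.9, 65.5 and 68.6 CPM in oxygen and 52.6, 61.1 and 47.9 CPM in sevoflurane. The groups did not overlap, and the difference was -0.33 (SE 0.11, adjusted p = 0.189, edgeR). Over all nuclei Creb1 had 79.3, 82.3 and 77.5 CPM against 67.2, 71.9 and 71.1 CPM, also without overlap (SE 0.05, adjusted p = 0.123, edgeR). Crem passed in 0 of 12 classes by edgeR, with 1 at an unadjusted p under 0.05 and 0 by DESeq2. It encodes activators and also the inducible repressor ICER from an internal promoter, and counts per gene do not separate these forms. Crem had 25.3, 25.8 and 25.1 CPM in oxygen and 26.0, 26.8 and 24.9 CPM in sevoflurane over all nuclei, a difference of 0.03 (SE 0.06, adjusted p = 0.85, edgeR). The groups overlapped. Crem had groups without overlap in 1 of 12 classes, subicular or cortical excitatory-like neurons, a class in which 21.2% of all genes tested were also without overlap, with 20.1, 18.7 and 21.3 CPM in oxygen and 24.0, 28.1 and 22.0 CPM in sevoflurane (log2 difference 0.29, adjusted p = 0.286, edgeR).

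Pde4b, a phosphodiesterase that degrades cAMP, had fitted differences below 0 in 12 of 12 classes, from -0.79 to -0.19, and passed the edgeR test in 2 of them; 8 had an unadjusted p under 0.05, and 5 passed by DESeq2. In endothelial-like nuclei the sign was not stable: the difference was -0.34, but 0.26 with a stricter filter on nuclei and 0.01 without oxygen replicate 2. In CA3 pyramidal-like neurons it went from -0.19 to 0.00 when a trend over gene length, described further on, was taken out. In oligodendrocyte-like nuclei it had 6627, 8003 and 7117 CPM in oxygen and 4716, 3849 and 4018 CPM in sevoflurane. Every sevoflurane library lay below every oxygen library, and Pde4b fell by 0.79 on the log2 scale (SE 0.13, adjusted p = 0.0117, edgeR). Without sevoflurane replicate 1 the difference was -0.88 (adjusted p = 0.00623, edgeR). The call ended without oxygen replicate 2 (adjusted p = 0.105, edgeR) or oxygen replicate 3 (0.0734). The 9 oligodendrocyte markers summed to 14870 to 15780 CPM in oxygen and 10940 to 13620 CPM in sevoflurane, with 1 of 9 passing the test, and the 8 choroid plexus markers to 216 to 1277 CPM and 17.2 to 22.0 CPM. Their part in the Pde4b difference was not tested.

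In oligodendrocyte precursor-like nuclei Pde4b had 1740, 1788 and 1747 CPM in oxygen and 1386, 1124 and 1108 CPM in sevoflurane. The groups did not overlap, and Pde4b fell by 0.54 on the log2 scale (SE 0.10, adjusted p = 0.00332, edgeR). Without sevoflurane replicate 1 the difference was -0.65 (adjusted p = 0.000639, edgeR), and without oxygen replicate 2 the adjusted p was 0.0722. The 7 oligodendrocyte precursor markers summed to 8296 to 9160 CPM in oxygen and 6674 to 8097 CPM in sevoflurane, with 0 of 7 passing, and their part was not tested. Inhibitory neuron-like nuclei had 347, 287 and 248 CPM against 181, 219 and 162 CPM, a difference of -0.65 without overlap that did not pass (SE 0.14, adjusted p = 0.0697, edgeR). It passed by DESeq2 (adjusted p = 5.05e-05) and, by edgeR, without oxygen replicate 3 (adjusted p = 0.0478) or sevoflurane replicate 2 (adjusted p = 0.0301). With all libraries Pde4b did not pass over all nuclei (-0.57, adjusted p = 0.0698, edgeR) or in CA1 pyramidal-like neurons (-0.32, adjusted p = 0.159, edgeR). Without sevoflurane replicate 1, Pde4b passed over all nuclei (-0.72, adjusted p = 0.0324, edgeR) and in CA1 pyramidal-like neurons (-0.45, adjusted p = 0.0113, edgeR). In all, 5 of 12 classes had groups without overlap for Pde4b, all lower, against 10.3% of the tests of all genes; nothing is read from this, since Pde4b was chosen on this comparison. In ependymal-like and endothelial-like nuclei the groups overlapped, with adjusted p-values of 0.8 and 0.692 by edgeR.

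**Figure D4:**
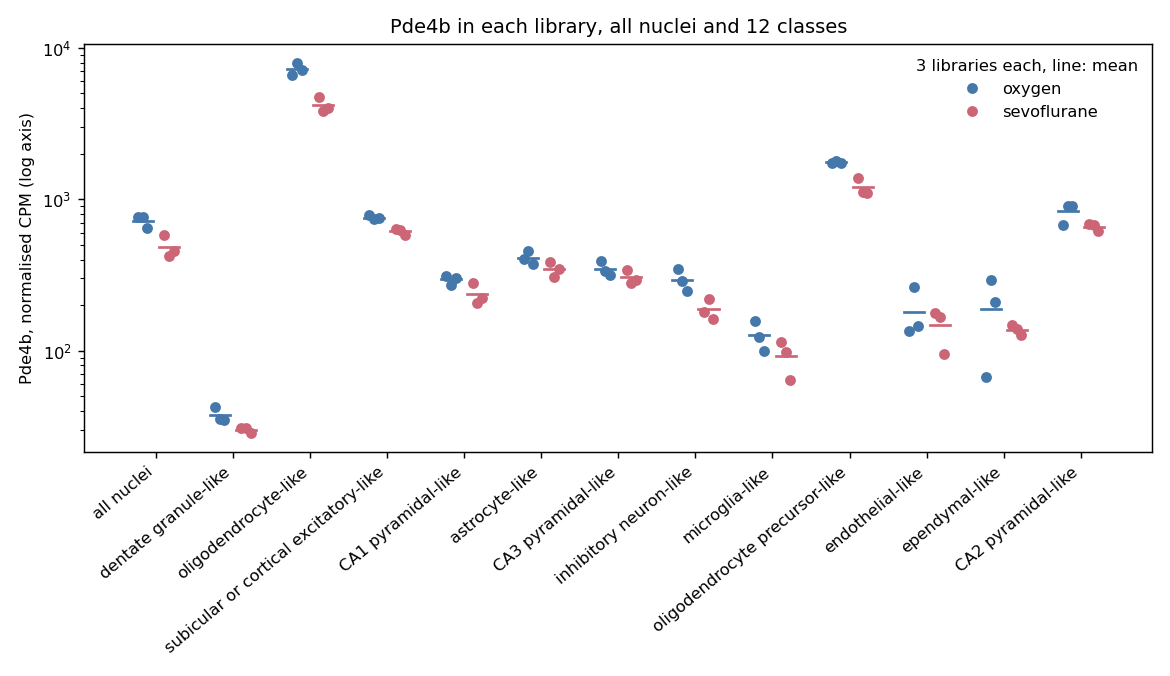
Pde4b in normalised CPM (log axis) in each library, for all nuclei and the 12 classes; points are libraries and lines are means of 3. In oligodendrocyte-like nuclei the oxygen libraries sit between 6627 and 8003 CPM and the sevoflurane libraries between 3849 and 4716 CPM.

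Pde4b has the longest gene of the 9 members, at 519.72 kb from start to end with introns. Long genes as a whole were lower after sevoflurane in all nuclei and in every tested class except endothelial-like nuclei. There the median log2 fold change was -0.05 for genes of 100 to 300 kb and 0.06 for genes of 300 kb and over. Over all nuclei the median log2 fold change was 0.06 for genes under 20 kb, -0.11 for genes of 100 to 300 kb and -0.19 for genes of 300 kb and over. In oligodendrocyte-like nuclei these medians were 0.08, -0.12 and -0.20, and in oligodendrocyte precursor-like nuclei 0.16, -0.11 and -0.22. With the trend over gene span taken out, the difference of Pde4b was -0.58 in oligodendrocyte-like nuclei (SE 0.14, adjusted p = 0.0858, edgeR) and -0.33 in oligodendrocyte precursor-like nuclei (SE 0.09, adjusted p = 0.128, edgeR), so both calls ended. The 3 calls of Sik1 stayed, at 0.98 over all nuclei (adjusted p = 0.0498), 2.62 in astrocyte-like nuclei (adjusted p = 0.000478) and 1.27 in dentate granule-like neurons (adjusted p = 0.0275), all by edgeR.

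**Figure D5:**
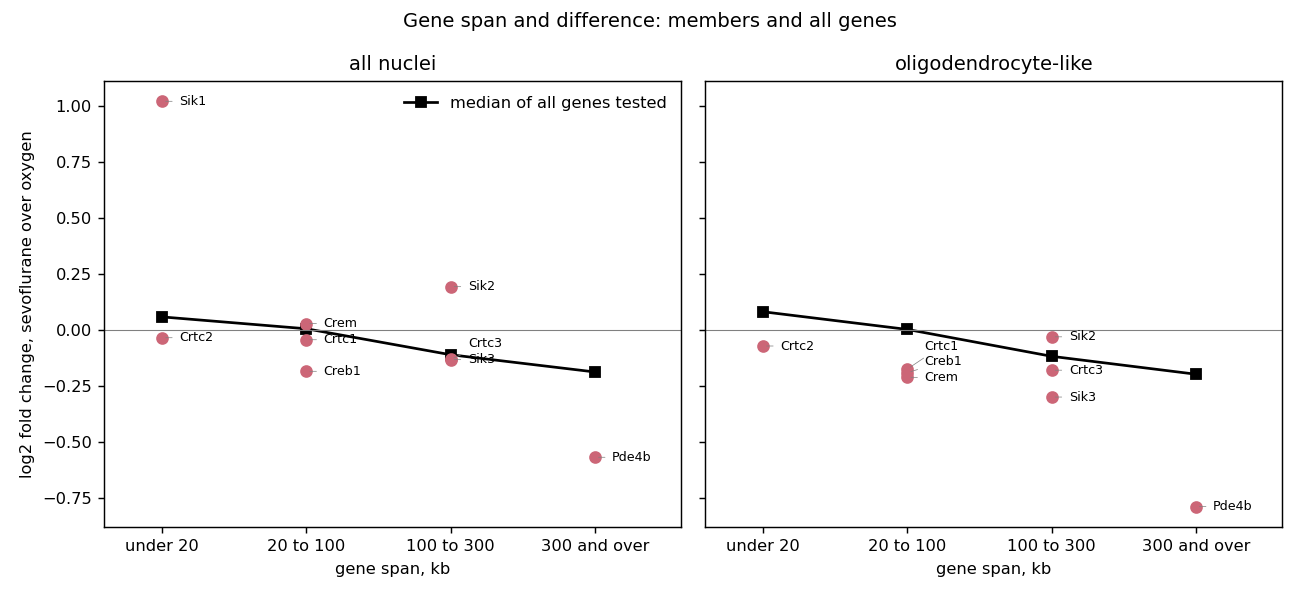
Log2 fold change of sevoflurane over oxygen by gene span in kb, for all nuclei (left) and oligodendrocyte-like nuclei (right); squares are medians of all genes tested in a span range and circles are the members. Pde4b lies below the median of genes of 300 kb and over, and Sik1 above the median of genes under 20 kb; Sik1 was not tested in oligodendrocyte-like nuclei.

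Whether a member responded differently in a class than in dentate granule-like neurons was tested with limma on differences within each library. Of 94 pairs of a member and a class, 1 passed, against 0.569% of all such tests. It was Sik3 in CA3 pyramidal-like neurons, where 0.916% of genes passed. The CA3 pyramidal-like level minus the dentate granule-like level of Sik3 was 0.36 in oxygen and -0.14 in sevoflurane on the log2 scale, a change of -0.50 (SE 0.07, adjusted p = 0.00087, limma). Sik3 had 286, 260 and 261 CPM in oxygen and 193, 241 and 222 CPM in sevoflurane in CA3 pyramidal-like neurons, without overlap, and 232, 194 and 204 CPM against 209, 270 and 243 CPM in dentate granule-like neurons, which overlapped. Neither class passed the main edgeR test for Sik3 by itself. With no filter on low counts, Sik3 passed in CA3 pyramidal-like neurons (-0.29, adjusted p = 0.0204, edgeR). The difference from dentate granule-like neurons was below 0 in all 11 classes, from -0.50 to -0.00, and these share the dentate granule-like values. In oligodendrocyte-like nuclei it was -0.50 as well (SE 0.12, adjusted p = 0.103, limma) and in inhibitory neuron-like nuclei -0.37 (SE 0.075, adjusted p = 0.0879, limma). Whether CA3 pyramidal-like neurons differ from these classes was not tested. In both clusters of dentate granule-like neurons the groups overlapped for Sik3. The same held in both clusters of CA3 pyramidal-like neurons, scaled to the total of each cluster. The larger had 264, 243 and 228 CPM in oxygen and 189, 235 and 227 CPM in sevoflurane. The smaller had 313, 255 and 327 CPM in oxygen and 223, 299 and 239 CPM in sevoflurane. The response of Sik1 in astrocyte-like nuclei exceeded that in dentate granule-like neurons by 1.04 (SE 0.33, adjusted p = 0.137, limma), which did not pass. For Pde4b in oligodendrocyte-like nuclei the difference from dentate granule-like neurons was -0.48 (SE 0.14, adjusted p = 0.192, limma).

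Genes that act around the members were read from 7 lists. The lists were chosen with earlier results of these data known, so nothing is read from their counts of calls. The shares of all genes pooled over the 13 sets were 0.552% higher and 1.2% lower. The list of CREB target genes, of which 26 of 28 were tested, had 15 of 262 gene and set pairs higher (5.73%) and 0 lower, from 12 genes, with a median log2 fold change of 0.30. Nr4a3, a nuclear receptor of the immediate early genes, rose in ependymal-like nuclei from 31.6, 33.1 and 9.53 CPM to 454, 218 and 250 CPM (log2 fold change 3.602, SE 0.40, adjusted p = 0.0015, edgeR). Irs2, an adaptor of the insulin receptor, rose in astrocyte-like nuclei (1.07, adjusted p = 0.00566, edgeR), in CA1 pyramidal-like neurons (0.70, adjusted p = 0.00823, edgeR) and in ependymal-like nuclei (1.79, adjusted p = 0.000979, edgeR). Nr4a1, of the same receptor family as Nr4a3, rose in endothelial-like nuclei from 19.7, 18.7 and 14.1 CPM to 78.0, 59.2 and 52.6 CPM (1.76, adjusted p = 0.00218, edgeR). Egr1, an early response factor, rose in ependymal-like nuclei (1.77, adjusted p = 0.0105, edgeR). In dentate granule-like neurons, where Sik1 rose, Nr4a1 (0.49), Nr4a3 (0.46), Egr1 (-0.05) and Irs2 (0.31) did not pass, with adjusted p-values of 0.311, 0.33, 0.922 and 0.223 by edgeR. The listed targets have short genes, with a median span of 8.5 kb, and 12 of the 15 calls stayed with the span trend taken out.

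The other lists held mostly calls in the lower direction, as did all genes pooled (0.552% of tests higher and 1.2% lower). Of the genes of cAMP production, 2 of 129 pairs were higher and 8 lower, with a median of -0.09. Adcy8, a calcium-stimulated adenylyl cyclase, fell in astrocyte-like nuclei from 89.3, 109 and 82.9 CPM to 48.1, 33.2 and 40.6 CPM (log2 fold change -1.24, SE 0.16, adjusted p = 0.000601, edgeR). Of the phosphodiesterases other than Pde4b, 0 of 163 pairs were higher and 8 lower, with a median of -0.16. Pde7b fell in oligodendrocyte precursor-like nuclei (-0.67, adjusted p = 0.00185, edgeR), where Pde4b fell as well. Among Sik substrates, calcineurin and 14-3-3 proteins, 1 of 219 pairs was higher and 8 lower; Hdac4, a class IIa histone deacetylase that the kinases phosphorylate, accounted for 6 of the lower pairs and had a log2 fold change of -0.58 in inhibitory neuron-like nuclei (adjusted p = 0.00743, edgeR). Of protein kinase A subunits and inhibitors, 0 of 112 pairs were higher and 2 lower, both of the inhibitor Pkig. Of the other CREB-family factors, kinases and acetyltransferases, 1 of 175 was higher and 6 lower, and Camk4, a kinase of CREB, made up 4 of the lower pairs. Of the Lkb1 complex and its other kinase targets, 0 of 195 pairs passed by edgeR, with 22 at an unadjusted p under 0.05 and 0 by DESeq2. Over all lists 32 pairs were lower, and 8 of them stayed with the span trend taken out.

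The genes whose levels followed the members most closely were taken over 72 points, the sums of 12 classes in 6 libraries, as a description that carries no test, since the points share libraries and classes. For Sik1 the closest were Hipk3 (Pearson's r = 0.875), Polk (0.815), Coq10b (0.814), Hipk1 (0.814) and Nedd9 (0.811), of 5534 genes compared. For Crem they included Prdx6 (r = 0.897), Dnajc3 (0.884), Clu (0.882) and Pla2g7 (0.879). For Pde4b they were Ankrd28 (r = 0.857), Abhd17b (0.77), Clasrp (0.762), Dip2a (0.752) and Jam3 (0.732).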

How the data were processed

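Nuclear RNA of 6 hippocampal libraries was analysed, 3 per group. Per the labels' protocols, nuclei were isolated from frozen tissue and sequenced with droplet 3' chemistry, and per the submitters' processing notes fastp and Cell Ranger 7.1.0 were used with mm10. The deposited matrices hold raw counts, UMIs per gene and barcode, of barcodes that had already been selected; whether intronic reads were counted is not given in the sources used here. Of 53824 barcodes, 53287 had at least 500 UMIs, 300 genes and at most 5% mitochondrial UMIs. Scrublet (scanpy 1.11.5) marked 1395 doublets at a common score of 0.303, since its own threshold called 0 in oxygen replicate 1, which left 51892 nuclei. Leiden clustering (igraph 0.11.9, resolution 1.0, 3000 genes, 40 components, 20 neighbours) gave 49 clusters, of which 29 were named from at least 3 markers and 20 were left unnamed. A rule that leaves unnamed a cluster of few UMIs and mixed markers was set after the clusters were seen. Unnamed clusters held 8740 nuclei.

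Counts were summed per library and class and tested in R 4.3.3 with edgeR 4.0.16 (TMM, filterByExpr, robust quasi-likelihood fit, treatment only, Benjamini-Hochberg over all genes of a set). Response differences used limma 3.58.1 with a prior count of 2. DESeq2 1.42.0 was an alternative. Positions are from GENCODE M21 (mm10), to which 32158 of 32285 genes were matched. The edgeR test was checked on data simulated from the astrocyte-like, dentate granule-like and endothelial-like classes. Of changes of 1 on the log2 scale it recovered 56.6%, 72.7% and 59.2%, and of changes of 2 it recovered 100%, 100% and 99%. False calls made up 7.69%, 4.97% and 4.88% of its calls. The simulation gave every gene the same dispersion and changed only genes above a count floor, so it does not cover genes with few UMIs. The members and gene lists were chosen with earlier results of these data known. The genes named are all members, up to 4 called genes of each list by smallest adjusted p, and the 5 genes most like Sik1, Crem and Pde4b, leaving out predicted genes; 1 of the genes most like Crem is not reported here. The main tests did not pair the libraries by replicate number, and same-numbered libraries did not deviate together. Whether they were collected or run as pairs is not known.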

Additional observations from a re-analysis of the deposited data

Results flagged for a closer look

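Sik3 was the member whose response differed between classes by a test of the difference itself. Its level in CA3 pyramidal-like minus dentate granule-like neurons changed by -0.50 on the log2 scale between oxygen and sevoflurane (SE 0.07, adjusted p = 0.00087, limma), in the same direction and past the threshold when each library was left out, with adjusted p-values of 0.00131 to 0.00669. The difference from dentate granule-like neurons was below 0 in all 11 classes, which share those values, and was as large in oligodendrocyte-like nuclei (-0.50, SE 0.12, adjusted p = 0.103, limma), so it is not shown to be particular to CA3 pyramidal-like neurons. Neither class passed the main edgeR test by itself, though CA3 pyramidal-like neurons did with no filter on low counts (-0.29, adjusted p = 0.0204, edgeR). The groups overlapped in both clusters of each class, and no cause was tested.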

How the results depend on the processing

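The 5 member calls became 8 with DESeq2, 13 with no filter on low counts and 3 with the span trend taken out, and ranged from 1 to 7 when 1 library was left out, the lowest without oxygen replicate 2. The 51 calls of the lists became 82 with DESeq2, 100 with no filter and 23 with the span trend taken out, and ranged from 13 to 57 with 1 library left out. Response differences gave 1 to 3 calls with 1 library left out. CA2 pyramidal-like nuclei were not named at resolution 0.5 and gave no value there. Same-numbered libraries did not deviate together (r from -0.123 to 0.077); with the replicate block the member calls were 6, the list calls 37 and the response differences 1, and Sik1 over all nuclei had an adjusted p of 0.0801 by edgeR; Sik1 in ependymal-like nuclei (1.55, adjusted p = 0.0287) and Pde4b in inhibitory neuron-like nuclei (-0.65, adjusted p = 0.0434) passed with it. No called fold change changed sign under any alternative run, but fold changes of members that did not pass often did, so their directions are not settled; the cause was not tested. With the span trend taken out, the sign changed for Sik3 in all nuclei (0.00), Crem in dentate granule-like nuclei (0.01), Sik2 in oligodendrocyte-like nuclei (0.06), Crtc2 in CA1 pyramidal-like nuclei (-0.02), Pde4b in CA3 pyramidal-like nuclei (0.00), Crtc3 in inhibitory neuron-like nuclei (0.00). With a stricter nuclei filter, the sign changed for Crtc2 in CA1 pyramidal-like nuclei (0.00), Sik2 in endothelial-like nuclei (-0.11), Crtc3 in endothelial-like nuclei (-0.17), Pde4b in endothelial-like nuclei (0.26), Crtc3 in ependymal-like nuclei (-0.03), Creb1 in ependymal-like nuclei (-0.29). With doublets kept, the sign changed for Sik3 in endothelial-like nuclei (-0.03), Crtc2 in endothelial-like nuclei (-0.01), Creb1 in endothelial-like nuclei (0.02). With no filter on low counts, the sign changed for Creb1 in endothelial-like nuclei (0.01). When each library was left out, values on both sides of 0 or at it were found as follows. For Crtc1 the range was -0.12 to 0.01 in all nuclei, -0.33 to 0.07 in oligodendrocyte-like, -0.28 to 0.01 in astrocyte-like, -0.01 to 0.16 in inhibitory neuron-like, -0.04 to 0.28 in microglia-like, -0.08 to 0.18 in endothelial-like nuclei. For Crtc2 the range was -0.14 to 0.04 in all nuclei, -0.30 to 0.06 in oligodendrocyte-like, -0.18 to 0.08 in subicular or cortical excitatory-like, -0.06 to 0.12 in CA1 pyramidal-like, -0.43 to 0.14 in oligodendrocyte precursor-like, -0.12 to 0.58 in endothelial-like, -0.55 to 0.03 in CA2 pyramidal-like nuclei. For Crem the range was -0.08 to 0.05 in dentate granule-like, -0.02 to 0.19 in inhibitory neuron-like, -0.16 to 0.06 in oligodendrocyte precursor-like, -0.04 to 0.77 in endothelial-like, -0.15 to 0.06 in CA2 pyramidal-like nuclei. For Sik2 the range was -0.11 to 0.12 in oligodendrocyte-like, -0.10 to 0.29 in CA2 pyramidal-like nuclei. For Sik3 the range was -0.25 to 0.05 in astrocyte-like, -0.09 to 0.17 in microglia-like, -0.04 to 0.16 in endothelial-like nuclei. For Creb1 the range was -0.03 to 0.15 in astrocyte-like, -0.16 to 0.09 in endothelial-like, -0.13 to 0.30 in ependymal-like, -0.12 to 0.05 in CA2 pyramidal-like nuclei. For Crtc3 the range was -0.04 to 0.21 in endothelial-like, -0.14 to 0.18 in ependymal-like, -0.04 to 0.17 in CA2 pyramidal-like nuclei. For Pde4b the range was -0.51 to 0.01 in endothelial-like nuclei. Of the Sik1 shares, those of oligodendrocyte precursor-like nuclei (0.109 to -0.00334 percentage points) and CA2 pyramidal-like nuclei (-0.0209 to 0.692) changed sign without thinning, and those of the other 10 classes did not. With 3 libraries a group, small differences in classes with few UMIs may not pass.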
